A study of Oryctolagus cuniculus with 12 samples.

Results

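Genes of ribosome biogenesis and rRNA processing were examined in ear tissue of rabbits by bulk RNA-seq. A list of 50 gene symbols was chosen by function and looked up by symbol among the 29587 genes of the series. A row was found for 40 of the symbols, and 39 of these 40 genes reached a mean FPKM of at least 1 over all samples and were tested. FBL, the methyltransferase of box C/D snoRNPs, was listed at 0 in 11 samples, with 1 read in the remaining sample, and was not tested. The symbols BOP1, BYSL, EXOSC1, LTV1, NOLC1, NOP10, PUS1, RRN3, TAF1D and UTP14A matched no row and were not analysed here. All samples were from female WT rabbits, with 3 rabbits in each of 4 groups, and all tissue was harvested on day 43. NS was ear skin left without treatment and HS was hypertrophic scar, grown after skin resection and left without treatment. In the drug-loaded MNs group, each scar lesion received 1 patch of separating microneedles made of gelatin methacryloyl and a peptide prodrug of 5-fluorouracil acetic acid, on days 22, 29 and 36. In the 5-Fu injection group, each lesion was injected with 0.1 mL of 5-Fu solution containing 120 μg on the same days. The labels give no drug dose for a patch, so doses of the treated groups could not be matched. No sample came from scar given drug-free microneedles or an injection without drug. Drug and procedure therefore cannot be told apart in either treated group. Full thickness tissue holds epidermis, dermis and cartilage, and every level is an average over these layers.

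Ribosome biogenesis begins in the nucleolus, where RNA polymerase I transcribes a long rRNA precursor. Box C/D and H/ACA snoRNPs modify this precursor, the small subunit processome and the 60S assembly factors cut and fold it, and the RNA exosome trims and degrades its by-products. 5-Fu is a pyrimidine analogue that inhibits thymidylate synthase and is also incorporated into RNA, and it is known to disturb pseudouridine synthases, rRNA processing and the RNA exosome.

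Between 10521472 and 14043667 reads were assigned to genes in each sample, and the 39 tested genes took 0.170% to 0.3004% of them. A tested member carried between 83 and 6110 reads in a sample. The tissue was checked against its markers. Basal keratinocyte, fibroblast and cartilage genes were present in every sample. Of the skeletal muscle markers, the myosin genes MYH1, MYH4 and MYH7 were listed at 0 in 9 to 11 of 12 samples. Other muscle markers were detected, with a mean FPKM in NS of 17.6 for ACTA1, 10.8 for CKM and 3.92 for TNNT3. The 8 muscle markers with a row summed to 5.64 FPKM in drug-loaded MNs replicate 1, the lowest sample, and to 74.6 in NS replicate 3, the highest. The summed FPKM of 8 fibroblast markers was 2509 to 3495 in NS and 37657 to 49272 in HS.

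FPKM is scaled by gene length, so levels of different genes can be set side by side. NCL and NHP2 had the highest mean FPKM over the 12 samples, at 154.8 and 141.6. NCL encodes nucleolin, a nucleolar RNA-binding protein, and NHP2 a core protein of H/ACA snoRNPs. NOP16, a 60S assembly factor, followed at 66.6 and NOP56, a core protein of box C/D snoRNPs, at 50.8. The highest member of the processome group was EMG1, a methyltransferase, with a mean FPKM of 37.9. UBTF, which binds rDNA for RNA polymerase I, had 31.4, and the exosome cap subunit EXOSC3 had 24.9. PUS7, a pseudouridine synthase that acts without a guide RNA, had 7.32. The lowest levels were those of UTP20, POLR1A and DIS3, with a mean FPKM of 4.13, 5.19 and 5.45. NPM1 had a mean FPKM of 22.7, but this value is uncertain. Its row on chromosome 5 (18411950 to 18412891, build not given in the sources used here) spans 942 bases and has a length of 942 bases, while a row without a symbol on chromosome 3 (52619509 to 52633246) that is described as nucleophosmin had a mean FPKM of 187.4. Reads of near-identical copies can be split between such rows.

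**Figure D1:**
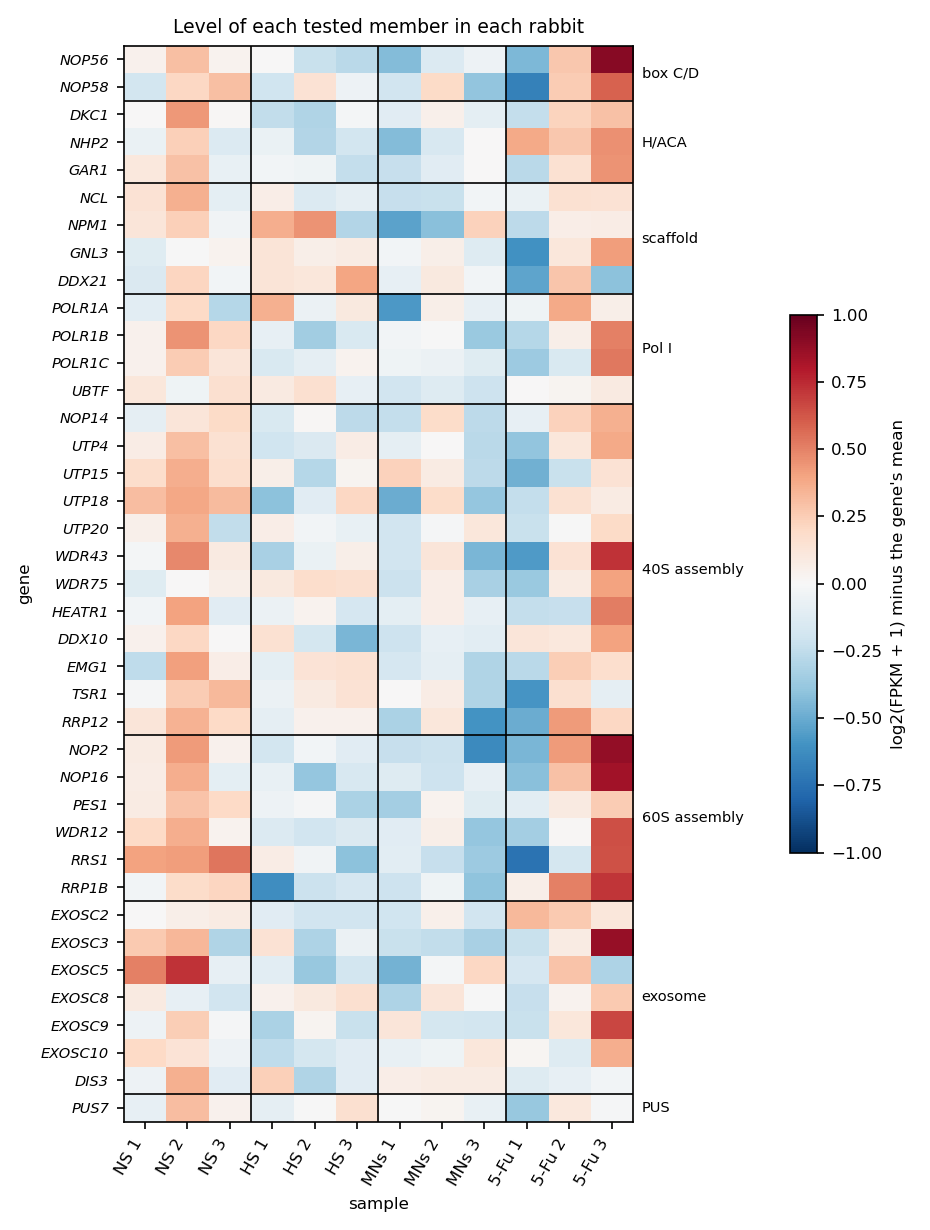
Heat map of log2(FPKM + 1) minus the gene's mean over 12 samples, with the 39 tested genes in rows ordered by role and the samples in columns (NS, HS, drug-loaded MNs as MNs, 5-Fu injection as 5-Fu, replicates 1 to 3). 5-Fu replicate 1 is the lowest of the 12 samples for 15 genes and 5-Fu replicate 3 the highest for 22, as for NOP56 with 35.7 and 93.1 FPKM.

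The comparison of 5-Fu injection with HS set the transcripts of this machinery 1 week after the last dose beside those of untreated scar. HS lesions were not injected, so 5-Fu and the injection itself cannot be told apart. RRP1B was the only member that passed a limma adjusted p under 0.05 (1 of 39, beside 4.40% of the 13287 genes tested and 1.23% that were higher), and its log2 fold change of 0.76 was below the limit of 1 for a differentially expressed gene (DEG). No member was a DEG, beside 2.29% of all genes. In limma, 3 of 39 members had an unadjusted p under 0.05, beside 26.0% of all genes. Limma voom on reads counted back also called 1 member, beside 4.67% of all genes. Groups did not overlap for 3 of 39 members, all higher after 5-Fu, beside 30.3% of all genes (13.9% higher and 16.4% lower). The median log2 fold change of the 39 members was 0.12, and that of all genes was 0.02, with 27 of 39 members above 0 beside 51.4% of all genes. The 95% interval of the fold change lay within 2-fold in either direction for 35 of 39 members, beside 63.3% of all genes. In bulk tissue, fewer cells of a type and less RNA per cell cannot be told apart.

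RRP1B encodes a nucleolar protein of 60S assembly. Its FPKM was 18.9, 22.0 and 22.5 in NS, 12.2, 16.5 and 17.0 in HS, 16.6, 18.7 and 14.4 in the drug-loaded MNs group and 20.1, 27.8 and 32.3 in the 5-Fu injection group. All 3 samples of the 5-Fu injection group stood above all HS samples, and the lowest of them was within the range of NS. The log2 fold change against HS was 0.76 (SE 0.19, 95% interval 0.34 to 1.18, limma adjusted p = 0.0498, n = 3 per group). This call was at the edge of the threshold: it was kept in 4 alternative settings, and the adjusted p was above 0.05 whichever replicate was left out (0.0543 to 0.155, log2 fold change 0.61 to 0.94). Of all genes, 0.00% to 11.6% passed in the fits with a replicate left out.

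The other members whose groups did not overlap were NHP2 and EXOSC2. NHP2 (chromosome 3, 58268040 to 58271380, minus strand) had FPKM values of 133, 114 and 122 in HS and of 181, 168 and 191 in the 5-Fu injection group, against 133, 165 and 127 in NS and 103, 125 and 139.5 in the drug-loaded MNs group. Its 5-Fu samples were the 3 highest of the 12. The log2 fold change against HS was 0.55 (SE 0.15, limma adjusted p = 0.0627). NHP2 has a length of 485 bases, and the 1310 tested genes of up to 500 bases had a median log2 fold change of 0.27 in the same comparison, against -0.19 for the 980 genes of over 5000 bases. The part of gene length in this difference was not tested. EXOSC2, a cap subunit that binds RNA at the exosome's entry, had FPKM values of 13.6, 12.8 and 12.8 in HS and of 18.7, 17.8 and 16.0 in the 5-Fu injection group. All 3 were above the NS values of 14.8, 15.4 and 15.7. The log2 fold change against HS was 0.40 (SE 0.12, limma adjusted p = 0.0780).

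**Figure D2:**
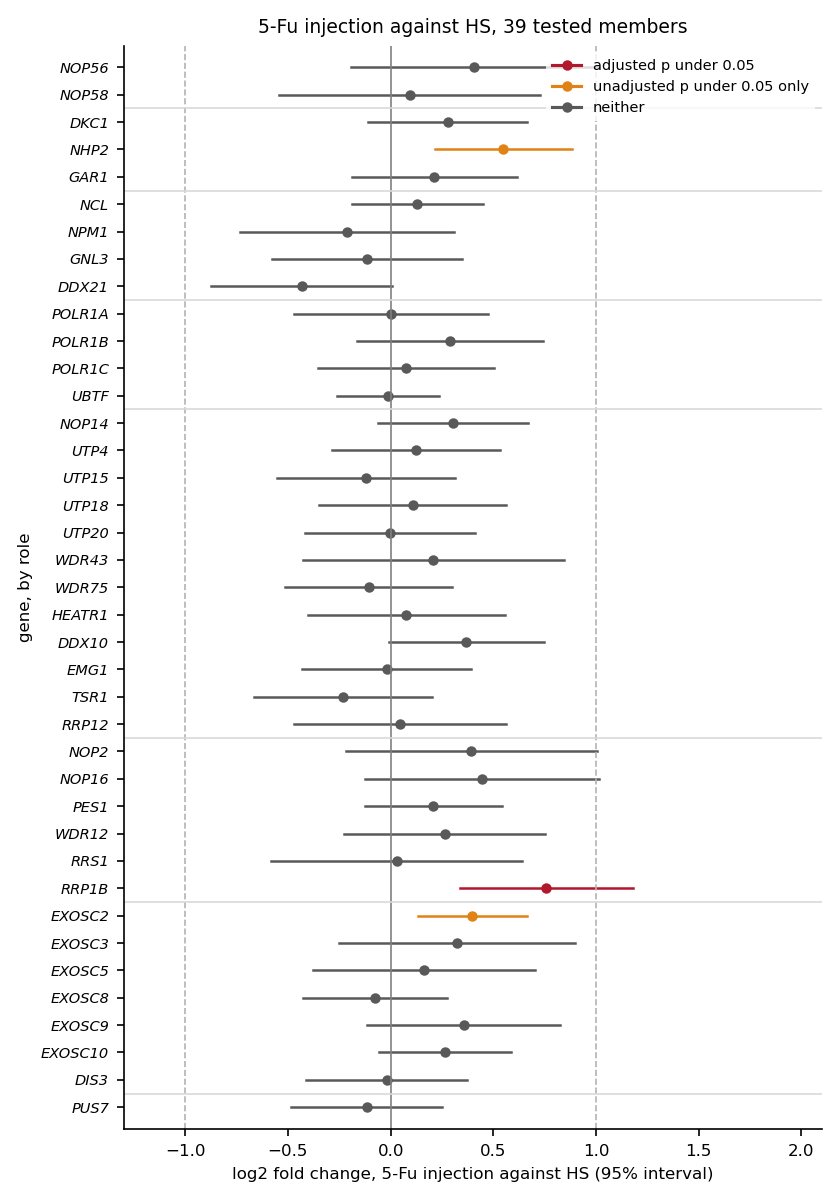
Log2 fold change of 5-Fu injection against HS for the 39 tested genes by role, as points with 95% intervals from limma, with dashed lines at a log2 fold change of 1 and -1. RRP1B at 0.76 is the only gene past an adjusted p of 0.05, and NHP2 at 0.55 and EXOSC2 at 0.40 are past an unadjusted p of 0.05 only.

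By role, the 6 tested 60S assembly genes all had a positive log2 fold change in 5-Fu injection against HS. Beside RRP1B these were NOP16 at 0.45, the rRNA methyltransferase NOP2 at 0.39, WDR12 at 0.26, PES1 at 0.21 and RRS1 at 0.03, and none of these 5 passed the test. PES1 and WDR12 are partners in the PeBoW complex. The 2 box C/D genes NOP56 and NOP58 had values of 0.41 and 0.09. Of the H/ACA genes, the pseudouridine synthase DKC1 had 0.28 and GAR1 had 0.21 beside the 0.55 of NHP2. PUS7 had -0.12.

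Of the 7 exosome genes, 5 were above 0. EXOSC9 had a log2 fold change of 0.36, EXOSC3 of 0.32, the nuclear catalytic subunit EXOSC10 of 0.26 and EXOSC5 of 0.16, beside the 0.40 of EXOSC2. EXOSC8 had -0.08 and the catalytic subunit DIS3 had -0.02. EXOSC10, whose loss is known to sensitise cells to 5-Fu, had FPKM values of 14.0, 14.9 and 15.6 in HS and 17.2, 15.3 and 22.0 after 5-Fu, so the groups overlapped. Its 95% interval of -0.06 to 0.59 included 0.

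The 12 processome and 40S assembly genes were split, with 7 above 0 and 5 below. The values were 0.37 for the helicase DDX10, 0.30 for NOP14, 0.21 for WDR43, 0.12 for UTP4, 0.11 for UTP18, 0.08 for HEATR1 and 0.05 for RRP12. On the other side, TSR1 had -0.23, UTP15 -0.12, WDR75 -0.11, EMG1 -0.02 and UTP20 0.00 after rounding. The RNA polymerase I genes POLR1A, POLR1C and UBTF had 0.00, 0.07 and -0.01, and POLR1B, the second largest subunit, had 0.29. The narrowest interval was that of UBTF, from -0.26 to 0.24.

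The lowest member was found in the nucleolar scaffold group. DDX21, a helicase that couples RNA polymerase I transcription to processing, had a log2 fold change of -0.43 (SE 0.20, limma adjusted p = 0.199). Its FPKM was 24.5, 24.2 and 29.6 in HS and 15.2, 27.2 and 16.6 in the 5-Fu injection group. Replicates 1 and 3 were below all HS samples and replicate 2 was within their range. Without 5-Fu replicate 2, the log2 fold change of DDX21 was -0.68 and its limma adjusted p was 0.0243, in a fit where 11.6% of all genes passed. NPM1 had -0.21, GNL3, a nucleolar GTPase, had -0.11, and NCL had 0.13. The value of NPM1 is uncertain, since the unnamed row described as nucleophosmin went the other way. That row had 183.0, 160.4 and 194.0 FPKM in HS and 213.4, 204.8 and 224.6 after 5-Fu, with no overlap. The FPKM of NCL was 161.3, 140.1 and 144.1 in HS and 146.9, 170.9 and 170.3 after 5-Fu, so the groups overlapped for the most abundant member.

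**Figure D3:**
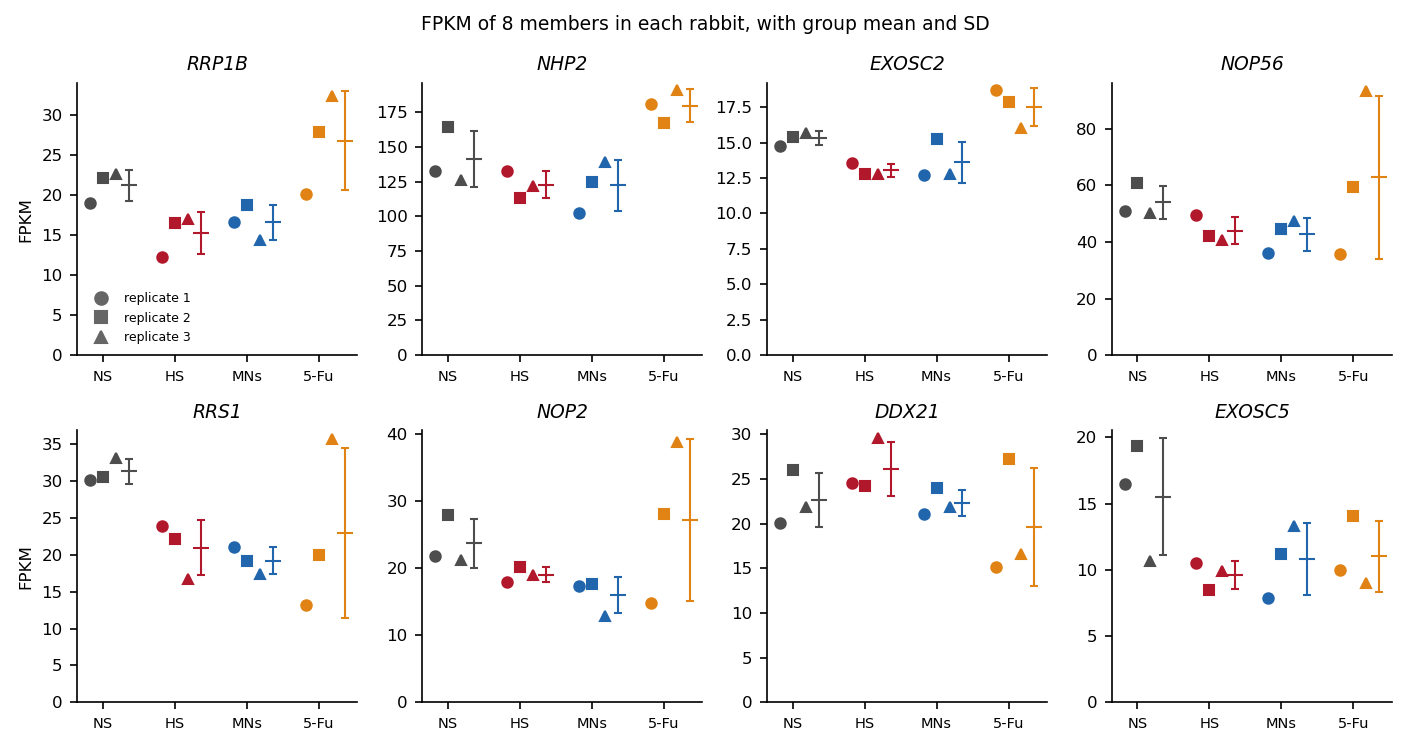
FPKM of RRP1B, NHP2, EXOSC2, NOP56, RRS1, NOP2, DDX21 and EXOSC5 on a linear axis from 0 in each of 12 samples by group (MNs stands for drug-loaded MNs), with symbols for replicates and bars for the group mean and SD of 3 rabbits. RRS1 runs from 13.2 to 35.6 within the 5-Fu injection group, past its HS range of 16.7 to 23.9 at either end.

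Within the 5-Fu injection group the rabbits differed from each other in most members. NOP56 had an FPKM of 35.7 in replicate 1, 59.4 in replicate 2 and 93.1 in replicate 3, against 49.3, 41.9 and 40.5 in HS. RRS1, an early 60S factor, had 13.2, 19.9 and 35.6, against 23.9, 22.1 and 16.7 in HS. NOP2 had 14.8, 28.0 and 38.8, against 18.0, 20.2 and 18.9 in HS. In all of these, replicate 1 lay below the HS samples and replicate 3 above them. NOP16 showed the same with 48.0, 79.4 and 116.3, against 61.2, 49.1 and 57.7 in HS, and WDR43, of the processome, with 9.54, 16.2 and 24.7, against 11.5, 13.9 and 15.3 in HS. NOP58 had 21.0, 41.0 and 52.1, against 29.7, 37.9 and 32.9 in HS. GNL3 had 50.7, 48.3 and 49.1, in HS and 30.1, 50.3 and 62.2 after 5-Fu.

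The spread was wide in many members and narrow in others. Replicate 3 was above replicate 1 in 37 of 39 members, beside 49.2% of all tested genes, with EXOSC2 and EXOSC5 as the exceptions. The ratio of replicate 3 to replicate 1 ranged from 0.857 for EXOSC2 to 2.70 for RRS1, with a median of 1.48, and was above 1.5 for 19 of 39 members and above 2 for 9. It was close to 1 for NHP2 (1.06), UBTF (1.06), POLR1A (1.08), DIS3 (1.09) and DDX21 (1.09), and the 5-Fu samples of UBTF had a coefficient of variation of 3.21%. Of the 12 samples, 5-Fu replicate 1 was the lowest for 15 of 39 members, beside 11.4% of all genes, and 5-Fu replicate 3 was the highest for 22 of 39, beside 14.9%. Both held for 11 of 39 members. The 5-Fu injection group had the largest SD of log2(FPKM + 1) of the 4 groups in 25 of 39 members, beside 41.0% of all genes. Replicate 3 was the highest sample for 5 of 6 genes of 60S assembly and both box C/D genes, and replicate 1 was the lowest sample for both box C/D genes and 6 of 12 processome genes. Replicate 1 was the lowest sample for 0 of 7 exosome genes.

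The mean of the 39 members was computed for each sample as log2(FPKM + 1) minus the gene's mean over all samples. This mean level was -0.26, 0.13 and 0.35 in the 5-Fu injection group, which held both the lowest and the highest of the 12 values. It was -0.05, -0.08 and -0.07 in HS, -0.19, -0.02 and -0.18 in the drug-loaded MNs group and 0.05, 0.28 and 0.04 in NS. By role, the 5-Fu values were -0.56, 0.26 and 0.75 for the box C/D genes and -0.33, 0.19 and 0.66 for 60S assembly, which were the widest. They were -0.32, 0.10 and 0.29 for the processome genes, -0.17, 0.08 and 0.29 for RNA polymerase I and -0.09, 0.08 and 0.28 for the exosome. The nucleolar scaffold genes, at -0.37, 0.15 and 0.06, and PUS7 alone, at -0.38, 0.11 and -0.01, were highest in replicate 2. Over all members the HS rabbits lay within 0.02 of each other, and the 5-Fu rabbits spanned 0.61. All tested genes had a mean level of 0.04, -0.02 and -0.01 in the same 5-Fu samples. The median log2 fold change of the members against HS therefore depended on which 5-Fu rabbits were used. It was 0.30 without replicate 1, 0.09 without replicate 2 and -0.01 without replicate 3, and the number of members at an unadjusted p under 0.05 was 13, 5 and 3, beside 22.9%, 29.7% and 19.6% of all genes tested in the same fits.

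**Figure D4:**
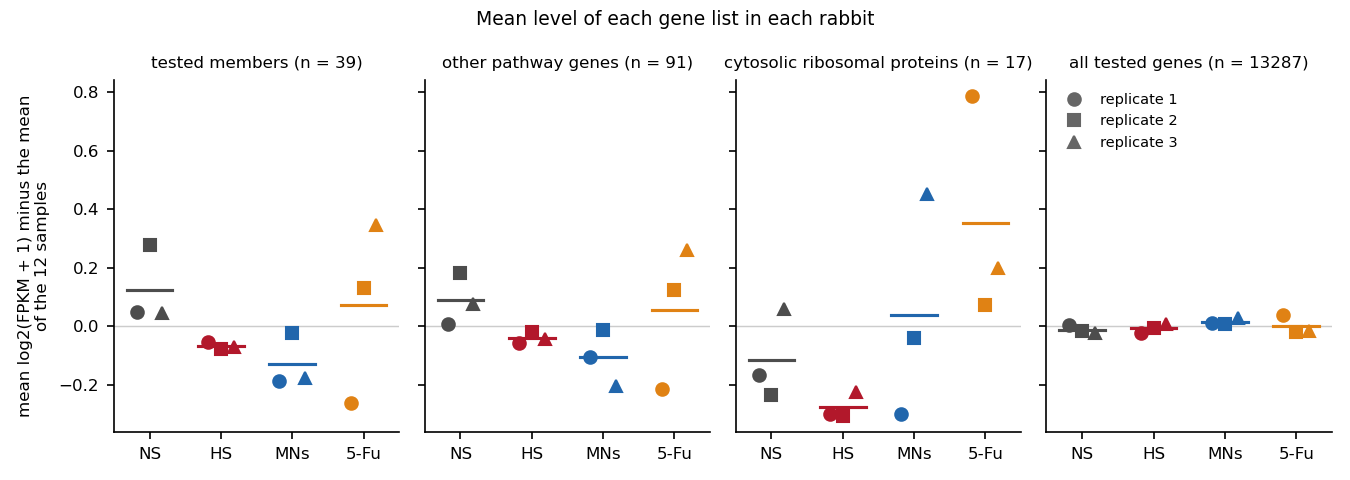
Mean of log2(FPKM + 1) minus the gene's 12-sample mean, for the 39 members, 91 other pathway genes, 17 cytosolic ribosomal protein genes and all 13287 tested genes, with a symbol per rabbit and a line at the group mean. The members range from -0.26 to 0.35 among the 5-Fu rabbits, while the ribosomal protein genes are highest in 5-Fu replicate 1, at 0.79.

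Marker genes of several cell types also differed among the 5-Fu rabbits. The 8 fibroblast markers with a row had a summed FPKM of 5116, 27054 and 6849 in replicates 1, 2 and 3. The 6 Schwann cell markers summed to 706, 139 and 433, against 172, 210 and 129 in HS. The summed FPKM of 7 cartilage markers was 5300, 435 and 847. Cartilage sums also differed widely within other groups, with 446, 889 and 4484 in HS and 814, 2164 and 4560 in the drug-loaded MNs group. 5-Fu replicate 1 was the highest of the 12 samples for cartilage. The 4 T cell markers with a row, of 9 listed, summed to 111.3, 20.03 and 18.57, against 4.06 to 7.98 in HS, and 7 basal keratinocyte markers to 863, 888 and 1593, against 455 to 514 in HS. The 5 differentiated keratinocyte markers ran the other way, with 5006, 2325 and 2155, against 1074 to 1717 in HS. The 5 B cell markers summed to 32.0, 2.73 and 4.77, against 7.05 to 81.1 in HS, with MS4A1 at 0 in 4 samples and PAX5 in 1. The 8 macrophage markers summed to 363, 330.4 and 98.2. No fibroblast, T cell, cartilage, Schwann cell or basal keratinocyte marker with a row was at 0 in any sample, and of the macrophage markers MARCO was at 0 in 3 samples. The part of these markers in the spread of the ribosome biogenesis genes was not tested. NS replicate 2 had the second highest mean level of the members, 0.28, with fibroblast and basal keratinocyte sums of 2509 and 1011.

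In HS against NS, no member passed a limma adjusted p under 0.05, beside 7.45% of all genes, and none was a DEG, beside 5.00%. In limma, 2 of 39 members, EXOSC5 and RRP1B, had an unadjusted p under 0.05, beside 23.4% of all genes. Limma voom called 0 members, beside 7.08% of all genes. More members were below 0 than above it. A positive log2 fold change was found for 6 of 39 members, beside 48.6% of all genes, and the median was -0.21, against -0.01 over all genes. The 95% interval lay within 2-fold either way for 37 of 39, beside 64.2% of all genes. Groups did not overlap for 18 of 39 members, beside 33.3% of all genes. Of these, 16 were lower in HS, beside 15.3% of all genes, and 2, WDR75 and GNL3, were higher, beside 18.0%. All 6 genes of 60S assembly were below 0 and groups did not overlap for 5 of them. Markers of several cell types differed in the same comparison. All 8 tested fibroblast markers rose, with a median log2 fold change of 3.42, 4 of 7 basal keratinocyte markers fell (median -0.82, 7 of 7 below 0) and 2 of 6 Schwann cell markers fell (median -1.60, 6 of 6 below 0). The part of these markers in the values of the ribosome biogenesis genes was not tested.

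The lowest member in HS against NS was EXOSC5, an exosome ring subunit, with FPKM values of 16.5, 19.4 and 10.7 in NS and 10.5, 8.49 and 9.89 in HS. All HS samples were below all NS samples, with a gap of less than 1 FPKM between the nearest. Its log2 fold change was -0.60 (SE 0.25, limma adjusted p = 0.167). RRS1 had 30.2, 30.5 and 33.2 in NS against 23.9, 22.1 and 16.7 in HS, and its log2 fold change was -0.57 (SE 0.28, limma adjusted p = 0.243). RRP1B followed with -0.46 (adjusted p = 0.179), the processome subunit UTP18 with -0.45 and POLR1B with -0.43. The highest were DDX21 at 0.20, POLR1A at 0.20, WDR75 at 0.17, EXOSC8 at 0.16 and GNL3 at 0.12.

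The size of this shift depended on scaling. Divided by the reads on genes, the library size behind the deposited FPKM was between 1.12 and 1.198 for NS and between 0.873 and 0.932 for HS. With FPKM rescaled to the total of reads on genes, the median of all genes moved to -0.33 and that of the members to -0.56, and 12 of 39 members passed an adjusted p under 0.05, all lower in HS, beside 19.9% of all genes on that scale. On either scale the median of the members was below that of all genes. NS replicate 2 was the highest sample for 10 of 39 members, beside 7.68% of all genes. Without it, 0 members had an unadjusted p under 0.05 in this comparison, beside 20.1% of all genes, and the median log2 fold change was -0.14.

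**Figure D5:**
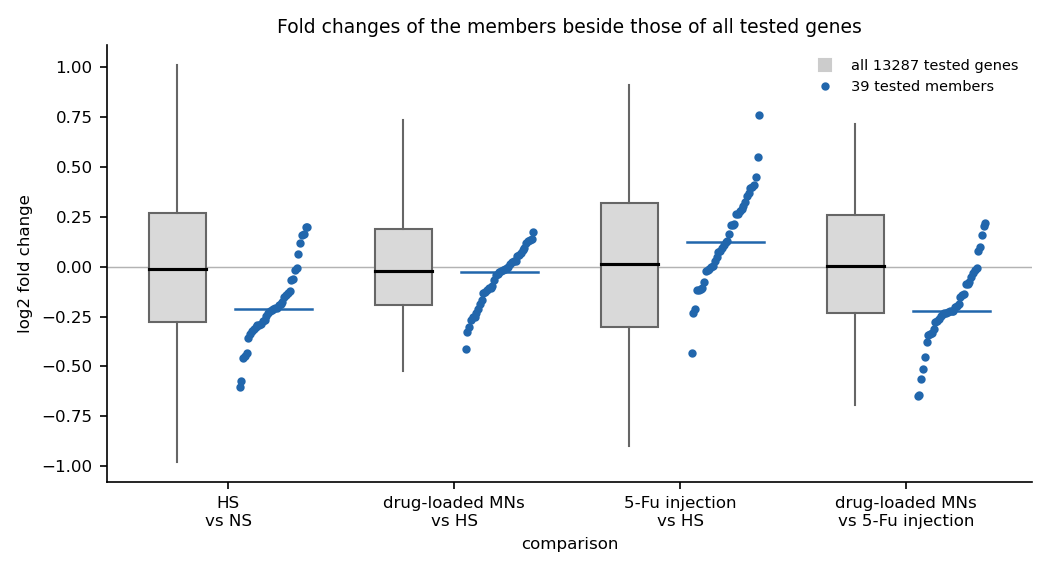
Log2 fold changes in 4 comparisons, as grey boxes for all 13287 tested genes (quartiles and median, with lines from the 5th to the 95th percentile) and blue points for the 39 members with a blue line at their median. The medians of the members are -0.21, -0.03, 0.12 and -0.22 from left to right, and all points lie between -0.65 and 0.76.

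In drug-loaded MNs against HS, no member passed the adjusted threshold in limma, beside 0.00753% of all genes. At an unadjusted p under 0.05 there were 0 of 39, beside 8.90%. Limma voom called 0 members and 0.00% of all genes. The median log2 fold change was -0.03, against -0.02 over all genes, and 14 of 39 were above 0, beside 46.8% of all genes. With FPKM rescaled to the total of reads, the medians were 0.10 and 0.11, and 24 of 39 members kept their direction. The 95% interval lay within 2-fold in either direction for 39 of 39 members, beside 73.0% of all genes. The log2 fold changes ran from -0.41 for NPM1 (SE 0.24), -0.33 for POLR1A, -0.30 for WDR75, -0.27 for RRP12 and -0.25 for NOP2 to 0.12 for RRP1B, 0.13 for EXOSC5, 0.13 for DKC1, 0.14 for DIS3 and 0.18 for EXOSC10. The value of NPM1 is uncertain. The more abundant unnamed nucleophosmin row had 154.4, 166.9 and 260.4 FPKM in the drug-loaded MNs group. Its HS values of 183.0, 160.4 and 194.0 overlapped with these. Groups did not overlap for 5 of 39 members, beside 18.9% of all genes. EXOSC10 was higher, with 15.9, 16.3 and 18.3 in the drug-loaded MNs group, and DDX21, UBTF, NOP2 and WDR75 were lower. UBTF had 27.3, 28.5 and 26.9 against 33.4, 35.2 and 29.4 in HS, and its log2 fold change was -0.23 (SE 0.11, limma adjusted p = 0.587).

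The direct comparison of drug-loaded MNs with 5-Fu injection set the patch against the injected drug. In limma, 0 members and 0.00% of all genes passed the adjusted threshold, and limma voom also called 0 members and 0.00% of all genes. At an unadjusted p under 0.05 in limma there were 4 of 39 members, beside 15.1% of all genes. These were NHP2 at -0.56 (SE 0.15, adjusted p = 0.2498), RRP1B at -0.64 (SE 0.19, adjusted p = 0.2498), EXOSC2 at -0.34 (SE 0.12, adjusted p = 0.272) and NOP2 at -0.65 (SE 0.28, adjusted p = 0.318). All 4 were lower in the drug-loaded MNs group. EXOSC3 at -0.51 and NOP56 at -0.45 were next, while DDX21 at 0.22, UTP15 at 0.20, DIS3 at 0.16, TSR1 at 0.10 and PUS7 at 0.08 were the highest. Groups did not overlap for 7 of 39 members, beside 17.1% of all genes (8.64% higher and 8.42% lower). DIS3 was higher, and UBTF, DDX10, EXOSC2, EXOSC3, NHP2 and RRP1B were lower. The median log2 fold change was -0.22, against 0.00 over all genes, and 5 of 39 were above 0, beside 50.3%. The 95% interval lay within 2-fold either way for 35 of 39, beside 70.7% of all genes. The median log2 fold change of the members was -0.04 without 5-Fu replicate 3 and -0.36 without 5-Fu replicate 1. Without replicate 1 the number at an unadjusted p under 0.05 was 17 of 39, beside 18.2% of all genes in that fit.

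Against NS, the treated groups also gave no member past the adjusted threshold in limma or in limma voom. Limma voom called 0.783% of all genes in drug-loaded MNs against NS and 0.00753% in 5-Fu injection against NS. In drug-loaded MNs against NS, where 0.963% of all genes passed, 3 of 39 members had an unadjusted p under 0.05, beside 12.9%, namely UTP18, RRS1 and UBTF, all lower. Groups did not overlap for 12 of 39, all lower, beside 20.6% of all genes (11.5% higher and 9.11% lower). Only 2 of 39 had a positive log2 fold change, beside 50.2%. RRS1 had FPKM values of 21.0, 19.2 and 17.3 in the drug-loaded MNs group, all below the NS values above, and a log2 fold change of -0.68. In 5-Fu injection against NS, where 0.00753% of all genes passed, 1 member had an unadjusted p under 0.05, beside 14.9%. This was NHP2, at 0.35 (limma adjusted p = 0.314). Groups did not overlap for 4 of 39, beside 18.8%, and 15 of 39 were above 0, beside 50.6%. The 95% interval lay within 2-fold either way for 38 of 39 in 5-Fu injection against NS and for 34 of 39 in drug-loaded MNs against NS, beside 69.2% and 70.7% of all genes. The comparisons with HS share the HS samples, those with NS share the NS samples, and the direct comparison of the treated groups shares samples with all of them except HS against NS.

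Several members host other genes. A snoRNA row lay inside the interval of 7 of the 39 tested members, or 17.9%, beside 2.14% of the 12479 tested protein-coding genes. NOP56 (chromosome 4, 9681659 to 9686943) held 5 of these snoRNA rows, NOP58 and GNL3 held 4 each, NCL and WDR43 held 3 each, TSR1 held 2 and DKC1 held 1. All 22 were on the strand of their host. snoRNAs are made from introns and guide the modification of rRNA. Their own levels were not examined, since the libraries were made from poly(A) RNA. Other protein-coding rows overlapped some members, and strand was not stated for the counting, so these values are less certain. RRP12 overlapped along its whole interval with a row on the opposite strand whose mean FPKM was 202.6, against 25.3 for RRP12. GAR1 lay wholly inside the row of MCUB on the same strand (mean FPKM 36.7 against 14.4), FBL shared 4941 bases with DYRK1B, and NCL lay wholly inside the row of ARMC9 on the opposite strand (mean FPKM 7.50).

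A wider list of 125 pathway symbols outside the 50 gave 91 tested genes. In 5-Fu injection against HS, 0 of 91 rose and 1 fell by limma adjusted p, beside 4.40% of all genes. At an unadjusted p under 0.05 there were 12 of 91, beside 26.0% of all genes, and the median log2 fold change was 0.12. The mean level of these genes was -0.21, 0.13 and 0.26 in the 5-Fu rabbits, so replicate 1 was again the lowest and replicate 3 the highest of the 12 samples. In HS against NS, 1 rose and 1 fell, beside 7.45% of all genes in either direction, and 71 of 91 were below 0, with a median of -0.19. The gene that fell was NOP9, a factor of 40S assembly, at -0.73 (SE 0.17, limma adjusted p = 0.0278). In drug-loaded MNs against HS, 0 passed in limma and 2 had an unadjusted p under 0.05, beside 8.90% of all genes, namely RPP14 of RNase P at -0.66 (adjusted p = 0.239) and AATF at -0.33 (adjusted p = 0.511). In drug-loaded MNs against 5-Fu injection, 0 passed in limma and 14 had an unadjusted p under 0.05, beside 15.1% of all genes, led by the snoRNP assembly helicase RUVBL2 at -0.49 and EXOSC4 at -0.62 (adjusted p = 0.2498 and 0.252).

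The gene that rose in HS and was lower after 5-Fu was DCAF13, a processome protein. Its FPKM was 20.2, 15.4 and 24.3 in NS, 100.9, 231.2 and 200.7 in HS, 147.1, 118.0 and 102.3 in the drug-loaded MNs group and 46.3, 93.6 and 49.1 in the 5-Fu injection group. The log2 fold change was 3.02 (SE 0.34, limma adjusted p = 0.00117) in HS against NS and -1.47 (SE 0.34, limma adjusted p = 0.0387) in 5-Fu injection against HS. All HS samples were above all samples of the 5-Fu injection group. The summed fibroblast markers were also higher in HS than in NS and, within the 5-Fu injection group, highest in replicate 2, and their part in this result was not tested. The DCAF13 row on chromosome 3 (118775633 to 118860133) is 84501 bases long and contains the whole row of a mitochondrial folate carrier on the opposite strand, so its reads may not all belong to DCAF13. The folate carrier itself was at 8.05 to 10.0 FPKM in NS and 7.66 to 9.99 in HS and did not follow the rise. Whether reads of any other gene in this long interval were counted in the row was not tested.

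Genes that accompany this pathway were also set beside it. Of 79 cytosolic ribosomal protein symbols, 17 were tested. In 5-Fu injection against HS none passed in limma, beside 4.40% of all genes, and 12 had an unadjusted p under 0.05, beside 26.0%. But 17 of 17 were above 0, beside 51.4% of all genes, with a median log2 fold change of 0.64. Groups did not overlap for 16, beside 13.9% of all genes that were higher. Their mean level was 0.79, 0.07 and 0.20 in the 5-Fu rabbits, so it was highest in replicate 1, where the biogenesis genes were lowest. These genes are short, with a median length of 529 bases, against 2384 bases for the 39 members, and the part of length was not tested.

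Of 8 tested genes of 5-Fu metabolism, 1 rose in 5-Fu injection against HS and 0 fell, beside 1.23% and 3.17% of all genes. UPP1, a uridine phosphorylase that can activate 5-Fu, had FPKM values of 6.96, 5.48 and 5.97 in HS and 15.2, 10.9 and 15.7 in the 5-Fu injection group, with no overlap, and a log2 fold change of 1.06 (SE 0.17, limma adjusted p = 0.0214). MYC, a transcription factor that drives ribosome biogenesis genes, had 29.2, 18.9 and 21.7 in HS and 30.0, 26.7 and 67.3 in the 5-Fu injection group, and a log2 fold change of 0.70 (SE 0.33, limma adjusted p = 0.2001). Of the 12 samples, MYC was highest in 5-Fu replicate 3, where the mean level of the biogenesis genes was also highest. NS replicate 2 was next for both, with MYC at 42.4 FPKM. In 5-Fu replicate 1, where that mean level was lowest, MYC was 30.0, above the 26.7 of replicate 2. The part of MYC in these levels was not tested. In HS against NS, where 5.24% of all genes rose and 2.21% fell, 2 of 17 cell cycle genes rose and 0 fell. CCNB2 and TOP2A, which act in mitosis, were DEGs at 1.41 and 1.08 (limma adjusted p = 0.0340 and 0.0488). Of 13 genes of the p53 response, 2 rose and 1 fell in that comparison. TP53INP1 was a DEG at 1.13 (limma adjusted p = 0.00981), GADD45A rose by 0.75 and the ribonucleotide reductase subunit RRM2B fell by 0.89. Of 8 genes of the MYC network, 1 rose, MXD4 by 0.50, and 0 fell. In 5-Fu injection against HS, 0 genes of these 3 lists passed in limma, beside 4.40% of all genes. At an unadjusted p under 0.05 there were 0 of 17, 4 of 13 and 1 of 8, beside 26.0% of all genes.

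No gene of the context lists passed in limma in drug-loaded MNs against HS, beside 0.00753% of all genes. At an unadjusted p under 0.05 there were 0, beside 8.90% of all genes. The smallest p were those of the ribosomal protein gene RPS12, at 0.56 (adjusted p = 0.577), and of MXI1, a MYC antagonist, at 0.54 (adjusted p = 0.586). In drug-loaded MNs against 5-Fu injection they were those of UPP1, at -0.99 (limma adjusted p = 0.161), and RPS29, at -0.71 (limma adjusted p = 0.2498). CDKN1A, MDM2, TYMS and MKI67 had no row under their symbol and were not analysed here.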

How the data were processed

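The authors purified poly(A) RNA from full thickness ear tissue, sequenced it and deposited 1 table of FPKM values for 12 samples, with gene symbols, positions and lengths. The aligner, counting tool, strand setting and genome build are not given in the sources used here. Samples were grouped by their labels. Multiplied by gene length, 100% of the deposited FPKM values fell on whole multiples of a step per sample (tolerance 0.01), so reads on genes could be counted back.

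Log2(FPKM + 1) was fitted with limma 3.58.1 (R 4.3.3) in 1 model of the 4 groups with a mean-variance trend, for the 13287 genes whose FPKM averaged 1 or more, and p-values were adjusted by Benjamini-Hochberg over all of them in each of 6 comparisons. A DEG needed both an adjusted p under 0.05 and a log2 fold change past 1 in either direction. Since the deposited unit is FPKM, no count model was the main test, and reads counted back entered only limma voom. The added 1 understates the fold changes of genes with low values. P-values measure the spread between 3 rabbits per group. Alternatives were other pseudocounts, filters, scalings and fits, and each replicate left out in turn. The fit was tested on simulated data.

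Members, lists and the rule for named genes were chosen with earlier results of these data known. Named were all members, those with the 5 largest and 5 lowest fold changes in the 4 main comparisons, the highest member of each role, and genes of the pathway and context lists that were DEGs or had the smallest p. NOP9, GADD45A, RRM2B, MXD4 and values per sample of members other than RRP1B, were added after the values were seen. The replicate numbers were checked and did not pair the samples, which came from different rabbits. Sequences were not examined.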

Additional observations from a re-analysis of the deposited data

How the results depend on the processing

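The number of members that were DEGs was 0 in the 4 comparisons under every alternative run. In drug-loaded MNs against HS and against 5-Fu injection no member passed an adjusted p under 0.05 under any. At most 0.294% and 0.0902% of all genes passed in these 2 comparisons. In 5-Fu injection against HS the count of 1 became 0 with a pseudocount of 0.1 and without the trend, beside 4.05% and 4.12% of all genes. It was also 0 with no filter on low values, with the replicate block and with only the 2 groups in the fit. Those fits called 0.668%, 0.926% and 0.00% of all genes. The count was 3 (RRP1B, NHP2 and EXOSC2) with FPKM rescaled to the total of reads, beside 4.08% of all genes, whose median was 0.13. Leaving out a replicate gave 0 to 1, beside 0.00% to 11.6% of all genes, and the 1 (without 5-Fu replicate 2) was DDX21, not RRP1B. RRP1B was called in 5 of 22 settings, the main one included, with an adjusted p from 0.0388 to 0.155. The replicate block gave RRP1B an adjusted p of 0.0602 and changed no other call, with same-number correlations between -0.27 and 0.44.

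In HS against NS, rescaling to the total of reads raised the count from 0 to 12 of 39 (beside 7.45% and 19.9% of all genes) and moved the median to -0.56 (-0.33 for all genes), while leaving out a replicate gave medians of -0.27 to -0.14. Leaving out a replicate gave medians from -0.0085 to 0.30 in 5-Fu injection against HS and from -0.36 to -0.044 in drug-loaded MNs against 5-Fu injection. In drug-loaded MNs against HS, rescaling kept the direction of 24 of 39 members, and the median was 0.10, against 0.11 for all genes. The cause of these changes was not tested, except that the rescaling itself shifts all genes. With 3 rabbits a group, the median 95% interval of a member reached 0.43 either side on the log2 scale, so smaller changes of a single member could be missed. This interval is not adjusted for the number of genes tested, so larger changes could be missed too. EXOSC5 in HS against NS, at -0.60, did not pass the adjusted threshold.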
